A study of Mus musculus with 22 samples.

Results

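The p53 and RB tumour suppressor pathways were followed through 6 genes in MYC-driven mouse liver tumours: Trp53, its inhibitor Mdm4, the CDK inhibitor genes Cdkn2a, Cdkn2b and Cdkn2c, and Rb1. They were taken by gene symbol from the 2 deposited expression tables, as 6 of 24063 genes. The first table lists RefSeq transcripts and held them as 9 of its 33068 rows, and the second lists genes and held them as 6 rows. The tumours were raised in C57BL/6 mice by pushing plasmids into hepatocytes through the tail vein, and none was treated. Every tumour, whichever group it served in, carried MYC. The partner of MYC was either p53 loss (named p53 in the genotype labels, and sgp53, a guide RNA against Trp53, in the sample titles of set 2) or β-catenin (bcat or CTNNB1 in the labels). The reporter was either luc, plain luciferase, or lucOS, luciferase that also carries model peptides which T cells recognise. Set 1 had 6 p53 tumours, 3 of them with lucOS and 3 with luc, and 6 β-catenin tumours, 2 of them with lucOS and 4 with luc. Set 2 had 4 p53 tumours, which all carried lucOS, and 6 β-catenin tumours, 3 of them with lucOS and 3 with luc. The mice's age and the promoters of the constructs are not given in the sources used here. Whether any 2 tumours share an animal is not stated in the labels, so the p-values measure only the spread between these samples, which may be partly technical. Each sample is bulk tumour, so fewer cells of a type and less RNA per cell cannot be told apart.

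The p53 protein, encoded by Trp53, stops the cell cycle or starts cell death after DNA damage or oncogene activity. Mdm2 and Mdm4 bind p53 and hold it in check. The Cdkn2a gene makes 2 unrelated proteins from a shared second exon read in different frames: p19Arf, which binds Mdm2 and so frees p53, and p16Ink4a, which inhibits Cdk4 and Cdk6. Cdkn2b (p15Ink4b) lies beside Cdkn2a and Cdkn2c (p18Ink4c) further along the same chromosome, and both encode inhibitors of the same kinases. These kinases phosphorylate the retinoblastoma protein, encoded by Rb1, which otherwise restrains the E2F transcription factors. Oncogenes such as MYC are known to induce Arf, and p53 is known to repress it.

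The 2 Cdkn2a products are shown at the junction that sets them apart, because the set 1 table has a row for each. These 2 rows share exons, so most reads of either can count for both. The Arf transcript begins with exon 1β (chr4:89294334-89294653, GRCm38, the assembly also called mm10, minus strand, GENCODE vM21) and the Ink4a transcript with exon 1α (chr4:89281986-89282192). Both are spliced to exon 2 (chr4:89276645-89276985). In the lines below, the last 30 bases of the first exon are in lower case and the first 30 bases of exon 2 in capitals, read on the minus strand from the GENCODE transcripts.
Arf junction, exon 1β to exon 2: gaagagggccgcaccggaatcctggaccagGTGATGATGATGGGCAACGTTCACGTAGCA
Ink4a junction, exon 1α to exon 2: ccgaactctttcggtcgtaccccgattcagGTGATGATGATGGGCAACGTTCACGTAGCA
The capitals are identical. Exon 1β holds 190 coding bases, which leave 1 base over after whole codons, and exon 1α holds 126, which leave 0, so exon 2 is read in 2 frames.

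The stretches upstream of the 3 first exons of the locus are shown because the 2 Cdkn2a transcripts and Cdkn2b each had a row in set 1. They come from the RefSeq promoter table on GRCm38.p6 and stop before the start site of both RefSeq and GENCODE. Capitals mark a match to an E2F-type site, searched on both strands as TTTCCCGC, TTTCGCGC, TTTGGCGC or TTTGCCGC.
Arf promoter, chr4:89294654-89294869, minus strand: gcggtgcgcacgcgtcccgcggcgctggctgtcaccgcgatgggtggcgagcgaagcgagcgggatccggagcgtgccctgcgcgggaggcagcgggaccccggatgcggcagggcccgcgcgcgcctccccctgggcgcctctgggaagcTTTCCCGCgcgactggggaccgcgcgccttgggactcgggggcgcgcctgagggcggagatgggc
Ink4a promoter, chr4:89282193-89282442, minus strand: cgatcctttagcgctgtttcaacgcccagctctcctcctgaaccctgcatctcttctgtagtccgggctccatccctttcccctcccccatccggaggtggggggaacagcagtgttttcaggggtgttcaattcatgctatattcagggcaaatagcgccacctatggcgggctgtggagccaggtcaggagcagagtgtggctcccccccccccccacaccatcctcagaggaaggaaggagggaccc
Cdkn2b promoter, chr4:89311040-89311282, minus strand: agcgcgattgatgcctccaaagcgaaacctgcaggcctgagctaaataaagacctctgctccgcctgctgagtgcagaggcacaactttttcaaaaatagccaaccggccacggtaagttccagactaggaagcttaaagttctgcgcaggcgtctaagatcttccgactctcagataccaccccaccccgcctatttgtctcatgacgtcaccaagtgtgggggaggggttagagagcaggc
The E2F-type match lies 99 to 92 bases before the RefSeq start of Arf. Such a match stands in 1.86% of the 32851 promoter windows of 250 bases in the table, and none stands in the windows of Ink4a or Cdkn2b. The 250-base window of Arf holds 40 CpG dinucleotides and 78.4% G and C, against 7 and 60.0% for Ink4a, 12 and 53.6% for Cdkn2b, and medians of 6 and 52.4% over all windows. The letters of a GC box, GGGCGG, occurred at 2 places of the Arf window, 1 of them in the 34 bases next to the start that are not printed. They occurred in neither of the other windows, and in 32.7% of all. The MYC-type E-box CACGTG occurred in none of these 3 windows and in 6.02% of all, and the E2F-type match overlapped none of the other motifs. A p53 half-site was searched as RRRCWWGYYY, where R is A or G, W is A or T and Y is C or T. The window upstream of Trp53 (chr11:69580109-69580358, plus strand) held 1 match, GGACTTGCCC, 75 to 66 bases before the start, a motif found in 7.13% of all windows. The window held no second match, and so no pair of half-sites. A match describes these letters and not binding, and an absent match says only that the letters are not in the window.

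Reads over genes came to 33706072 in the shallowest and 54872646 in the deepest tumour of set 1, and to 33550553 and 50116323 in set 2. The number of genes with at least 1 read varied from 17307 to 18310 (set 1) and from 17529 to 18170 (set 2). The values below are reads divided by 1 size factor per sample, called normalized reads, and the 2 sets were scaled apart, so levels are compared within a set. Liver identity was checked with Alb, the albumin gene, which ran from 105900 to 555000 normalized reads in set 1 and from 70110 to 535700 in set 2. Differences are log2(value + 1) of β-catenin minus p53 tumours, tested with limma and adjusted over all genes kept, and a gene is called at an adjusted p under 0.05. In the deposited scaling the median of all genes was itself shifted by -0.20 (luc, set 1), -0.15 (lucOS, set 1) and -0.16 (lucOS, set 2), and each difference is to be read against that. In set 2, 3 of the 4 p53 tumours have names that begin with AL, and the fourth and all β-catenin tumours have names that begin with JAX. The labels do not say what these prefixes mean.

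**Figure D1:**
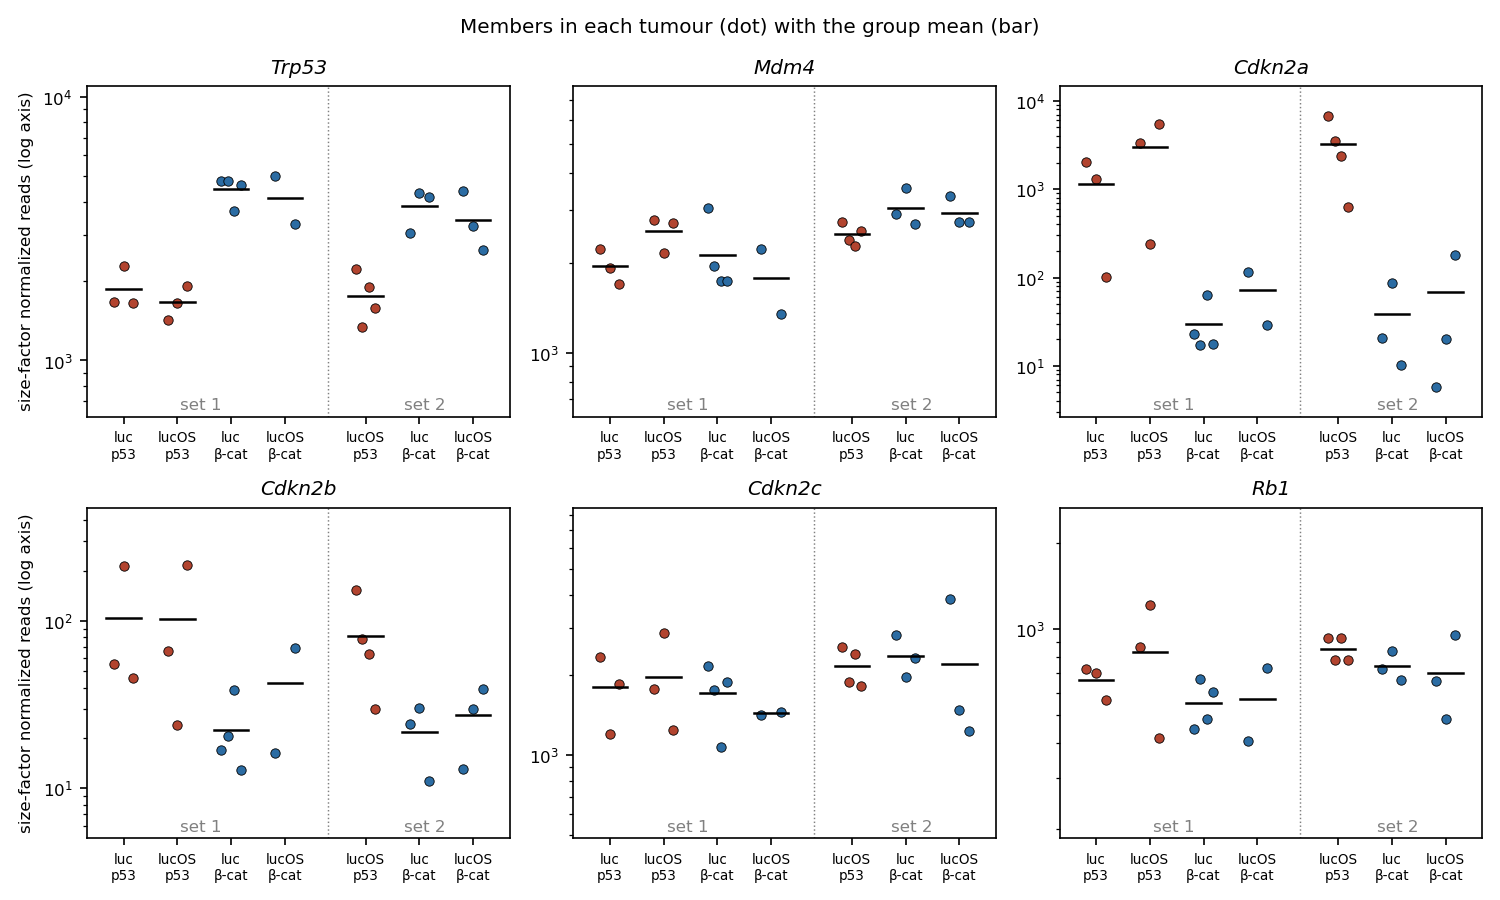
Normalized reads of the 6 genes (vertical log axes) in each tumour (dots, red for p53 and blue for β-catenin) by group, with the group mean as a bar and set 1 left of the dotted line. Trp53 lies higher and Cdkn2a lower in every β-catenin tumour than in every p53 tumour with the same reporter and set, while Cdkn2c and Rb1 overlap.

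All 6 genes passed the filter on low values in both sets. Among luc tumours of set 1, Trp53 was called higher and Cdkn2a lower with β-catenin, so 2 of 6 were called, against 15.1% of all 16108 genes tested (5.93% higher and 9.16% lower). In the lucOS tumours of set 1 only Trp53 was called, 1 of 6, against 4.21% of all genes (1.62% higher and 2.59% lower). In those of set 2, Trp53 and Cdkn2a were called, 2 of 6, against 17.0% of the 15625 genes tested (6.08% higher and 10.9% lower). Groups that did not overlap at all were counted for 3, 2 and 3 of the 6 genes in these comparisons, against 34.1%, 37.8% and 32.7% of all genes. The median difference over the 6 genes was -0.17, -0.52 and -0.25, close to that of all genes except among lucOS tumours of set 1. When each transcript row of set 1 was tested on its own, the same genes were called, with both of their rows, against 16.4% (luc) and 4.79% (lucOS) of all rows. The balance of directions over all genes turned round with the scaling. Among luc tumours 956 genes were called higher and 1475 lower, against 1221 and 682 under TMM scaling, 1110 and 675 with edgeR and 1881 and 1422 with DESeq2. For lucOS tumours of set 1 the counts were 261 and 417, against 317 and 197, 293 and 125, and 1046 and 985 with the same tools in turn. For lucOS tumours of set 2 they were 950 and 1706, against 1317 and 1022, 1336 and 894, and 2131 and 1711. Rows of 1 gene share exons and reads and are not independent of each other.

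Trp53 is the gene that the p53 label names and was measured in every sample. On chromosome 11 (chr11:69580359-69591873, plus strand) it has 2 RefSeq transcripts in the table, and the gene values are those of the longer one. In set 1 the luc p53 tumours had 1669, 2280 and 1646 normalized reads and the lucOS p53 tumours 1423, 1645 and 1923. The luc β-catenin tumours had 4790, 4809, 3689 and 4637, and the lucOS β-catenin tumours 4994 and 3296. Every β-catenin tumour was above every p53 tumour of the set. Transcripts were therefore present in all 6 p53 tumours, at a lower level. The titles of these tumours say only p53, and a guide is named in those of set 2 alone. The site that the guide cuts is not given in the sources used here. An RNA level therefore does not check the loss of p53 itself, and non-tumour cells in the sample carry the intact gene.

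In set 2 the lucOS p53 tumours had 2223, 1345, 1900 and 1584 normalized reads of Trp53. The lucOS β-catenin tumours had 4405, 3231 and 2631, and the luc β-catenin tumours 3054, 4325 and 4163, again with no overlap. Trp53 was higher with β-catenin by 1.27 ± 0.20 (SE) on the log2 scale among luc tumours of set 1 (4481 ± 534, SD, n = 4, against 1865 ± 359, n = 3; adjusted p = 0.00346, limma). With lucOS, set 1 gave a difference of 1.30 ± 0.24 (4145 ± 1200, n = 2, against 1663 ± 250, n = 3; adjusted p = 0.0214, limma). With lucOS in set 2 the difference was 0.95 ± 0.23 (3423 ± 902, n = 3, against 1763 ± 382, n = 4; adjusted p = 0.0237, limma). The 95% intervals ran from 0.83 to 1.71, from 0.77 to 1.82 and from 0.44 to 1.46. The lucOS calls were narrow. In set 1 leaving out lucOS p53 tumour 1 gave an adjusted p of 0.0572 and leaving out lucOS β-catenin tumour 1 gave 0.0983, and a fit on the 2 lucOS groups alone gave 0.119 (limma). In set 2 leaving out p53 tumour 2, p53 tumour 3 or lucOS β-catenin tumour 1 gave 0.0526, 0.0521 and 0.0629, and with no filter on low values it was 0.0516. With the JAX tumours alone, where 1 p53 tumour was left, the difference was 1.08 with an adjusted p of 0.44 (limma).

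The 2 Trp53 rows differ by 96 bases at the start of the last exon, which only the longer transcript has. This row had between 13 and 26 more reads than the shorter one in the 6 β-catenin tumours of set 1 and between 4 and 32 more in the 6 p53 tumours. As a share of the longer row this was 0.364% (95% Wilson interval 0.221 to 0.600%) to 0.491% (0.287 to 0.839%) with β-catenin. With p53 loss it was 0.326% (0.127 to 0.834%) in luc p53 tumour 1 and 1.76% (1.23 to 2.51%) in lucOS p53 tumour 2, with the others between them. The medians were 1.258% with p53 loss and 0.404% with β-catenin. The longer row, of which the share is taken, was itself lower with p53 loss. In normalized reads the excess overlapped, at 5.43 to 28.9 with p53 loss and 13.4 to 22.2 with β-catenin. In 5 of the 6 p53 tumours, at 0.747% or more, the share was above that of every β-catenin tumour, and luc p53 tumour 1 was below them all. These intervals cover counting error only, since reads were not marked by molecule, and this pair of rows was looked at after its values were seen.

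Mdm4 (chr1:132959484-133030561, minus strand) encodes a relative of Mdm2 that binds p53 and blocks its activity. In set 1 its values were 2226, 1917 and 1699 normalized reads with luc and p53 loss and 2779, 2156 and 2723 with lucOS and p53 loss. With β-catenin they were 3039, 1956, 1736 and 1738 with luc and 2221 and 1344 with lucOS. The groups overlapped in both comparisons of set 1, with differences of 0.09 ± 0.24 among luc and -0.55 ± 0.29 among lucOS tumours (SE; adjusted p = 0.828 and 0.276, limma). The 95% intervals, -0.44 to 0.62 and -1.19 to 0.08, include a change of either sign.

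In set 2, Mdm4 was at 2729, 2381, 2275 and 2559 normalized reads in the p53 tumours and at 3335, 2740 and 2744 in the lucOS β-catenin tumours. The luc β-catenin tumours had 2898, 3539 and 2703. The lucOS groups did not overlap, but the difference of 0.24 ± 0.14 was not called (adjusted p = 0.254, limma, interval -0.07 to 0.55). With DESeq2 on the recovered reads it was 0.39 and called (adjusted p = 0.041).

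Cdkn2a showed the largest differences of the 6 genes in all 3 driver comparisons. Its gene (chr4:89274471-89294653, minus strand) spans the 2 first exons printed above. The Arf row, which has the higher mean and stands for the gene, had 2057, 1288 and 101.5 normalized reads in the luc p53 tumours of set 1 and 3341, 239.0 and 5512 in the lucOS p53 tumours. The luc β-catenin tumours had 22.7, 17.1, 62.7 and 17.6, and the lucOS β-catenin tumours 114.6 and 28.7. Groups with the same reporter did not overlap, but luc p53 tumour 3 at 101.5 lay below lucOS β-catenin tumour 1 at 114.6. The p53 tumours of set 1 differed 54.3-fold among themselves, while Trp53 differed 1.60-fold among the same 6 tumours.

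In set 2, Cdkn2a was at 6695, 3478, 2363 and 621.4 normalized reads in the p53 tumours. It was at 5.82, 19.9 and 181.8 in the lucOS β-catenin tumours and at 20.8, 86.3 and 10.2 in the luc β-catenin tumours. No β-catenin tumour reached the lowest p53 tumour, which is the 1 p53 tumour with a JAX name. The lowest value, in lucOS β-catenin tumour 1, rests on 8 reads.

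The log2 difference of Cdkn2a among luc tumours of set 1 was -4.60 ± 1.197 (SE), a fitted level 24.3-fold lower with β-catenin. The means were 29.99 ± 21.93 (SD, n = 4) and 1149 ± 985 (n = 3), and the adjusted p was 0.0284 (limma). Among lucOS tumours of set 1 the difference was -4.81 ± 1.43 (71.6 ± 60.8, n = 2, against 3031 ± 2650, n = 3) and was not called (adjusted p = 0.077, limma). Among lucOS tumours of set 2 it was -6.35 ± 1.17, a fitted fold of 81.6 (69.2 ± 97.8, n = 3, against 3289 ± 2557, n = 4; adjusted p = 0.00962, limma). The 95% intervals ran from -7.23 to -1.98, from -7.95 to -1.67 and from -8.96 to -3.74.

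The Cdkn2a call among luc tumours rested on single libraries. Without luc p53 tumour 1 or 2 the adjusted p was 0.114 and 0.0968, and without luc β-catenin tumour 1, 2 or 4 it was 0.051, 0.0597 and 0.0589. With no filter on low values it was 0.074 (limma). Conversely, the lucOS difference of set 1 was called without lucOS p53 tumour 2, at -6.20 with an adjusted p of 0.0242, and with DESeq2 (adjusted p = 0.000236). In set 2 it stayed called whichever 1 tumour was left out, with adjusted p-values between 0.00857 and 0.0302 (limma). Its size moved from -5.29 without lucOS β-catenin tumour 1 to -7.66 without lucOS β-catenin tumour 3, and was -5.41 with edgeR and with DESeq2. With the JAX tumours alone, where 1 p53 tumour remained, the difference was -4.39 (adjusted p = 0.563).

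**Figure D2:**
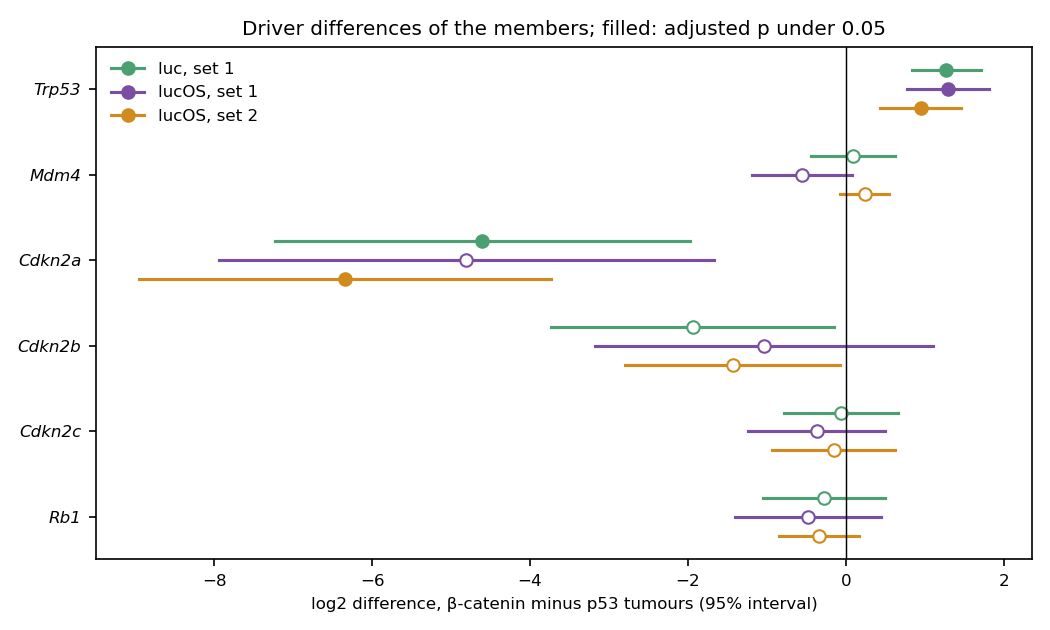
Log2 differences of the 6 genes between β-catenin and p53 tumours (horizontal axis), with their 95% intervals, for the 3 driver comparisons; filled dots are called. Trp53 lies between 0.95 and 1.30 in all 3, and Cdkn2a between -6.35 and -4.60 with wide intervals.

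The Ink4a row of Cdkn2a followed the Arf row in each tumour. It had 1642, 1059 and 88.4 normalized reads in the luc p53 tumours, 2739, 186.2 and 4535 in the lucOS p53 tumours, 20.4, 17.1, 51.9 and 14.8 in the luc β-catenin tumours and 97.2 and 23.7 in the lucOS β-catenin tumours. Its difference was -4.50 ± 1.19 among luc (adjusted p = 0.0288) and -4.75 ± 1.42 among lucOS tumours (adjusted p = 0.0749), in the limma fit on all transcript rows. The 2 rows share 575 bases of exons, so most reads of either can count for both. Of the Arf row's 895 bases 320 are its own, and of the Ink4a row's 852 bases 277 are its own.

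The Arf row exceeded the Ink4a row in 11 of 12 tumours. In luc β-catenin tumour 2 both held 20 reads. In the p53 tumours the net excess was between 17 and 1061 reads, or between 12.9% and 22.1% of the Arf row. In the β-catenin tumours it was at most 17 reads, and the highest share was 17.4%. The shares of the 2 drivers overlapped, so no change in the balance of the rows was detectable at this depth. The net excess is the reads of exon 1β less those found only in the Ink4a row, and not a count of either. No interval for counting error is therefore given for its share.

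**Figure D3:**
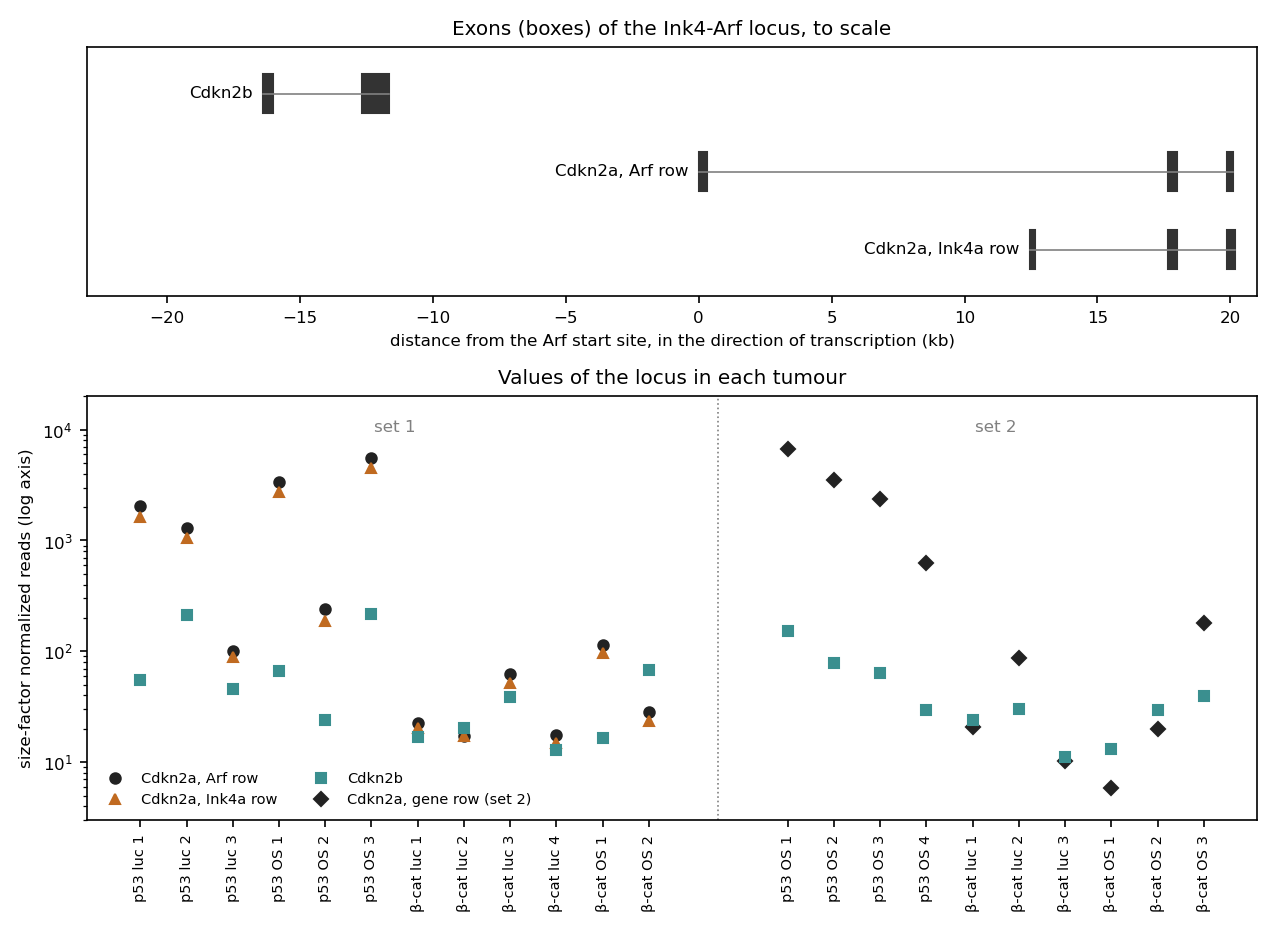
Top, exons of Cdkn2b and of the 2 Cdkn2a transcripts drawn to scale by distance from the Arf start site in kb; bottom, normalized reads on a log axis in each tumour, named by driver and by reporter (luc, or OS for lucOS). The Arf and Ink4a rows, which share exons and reads, move together from tumour to tumour, and Cdkn2b spans 11.1 to 216.3 against 5.82 to 6695 for Cdkn2a.

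Cdkn2b (chr4:89306299-89311039, minus strand), which encodes the TGF-β-inducible inhibitor p15Ink4b, was low throughout. In set 1 it had 55.7, 212.2 and 45.4 normalized reads in luc p53 tumours and 66.1, 23.9 and 216.3 in lucOS p53 tumours. It had 17.0, 20.5, 38.5 and 12.9 in luc β-catenin tumours and 16.4 and 68.5 in lucOS β-catenin tumours. The luc groups did not overlap and the lucOS groups did. In set 2 the p53 tumours had 153.3, 78.2, 63.7 and 29.7, the lucOS β-catenin tumours 13.1, 29.9 and 39.5, and the luc β-catenin tumours 24.2, 30.1 and 11.1.

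The Cdkn2b difference was -1.94 ± 0.82 among luc tumours of set 1, -1.04 ± 0.97 among lucOS tumours of set 1 and -1.43 ± 0.61 (SE) in set 2. None was called (adjusted p = 0.124, 0.56 and 0.129, limma). The 95% intervals, -3.73 to -0.15, -3.18 to 1.10 and -2.80 to -0.07, allow differences of several fold. Cdkn2a and Cdkn2b ranked the p53 tumours in the same order in set 2 and among lucOS tumours of set 1. Among luc p53 tumours the order differed, with tumour 1 highest for Cdkn2a and tumour 2 for Cdkn2b. Mtap (chr4:89137122-89181081, plus strand) lies on the side of Cdkn2a away from Cdkn2b. It encodes an enzyme of methionine salvage that is often lost together with CDKN2A in human tumours, and was not called in any of these comparisons. Its differences were -0.05, 0.27 and -0.18 (adjusted p = 0.93, 0.739 and 0.744, limma). Dmrta1, on the other side of the locus, did not pass the filter.

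Cdkn2c (chr4:109660876-109667189, minus strand), which encodes p18Ink4c, did not follow its relatives. Per kb of transcript in set 1, its mean was above that of Cdkn2b in every group. With β-catenin it was also above that of Cdkn2a (696.4 against 33.5 with luc, 582.6 against 80.0 with lucOS). With p53 loss it was below (729.1 against 1284 with luc, 798.5 against 3386 with lucOS), though Cdkn2a varied widely there. In set 1 it ranged from 1204 to 2892 normalized reads over the 6 p53 tumours (median 1816) and from 1073 to 2169 over the 6 β-catenin tumours (median 1610). In set 2 it ranged from 1814 to 2554 over the 4 p53 tumours and from 1232 to 3877 over the 6 β-catenin tumours. The groups overlapped everywhere. Differences were -0.06 ± 0.33, -0.37 ± 0.39 and -0.15 ± 0.35 (SE; adjusted p = 0.914, 0.614 and 0.787, limma). The first and the third turned positive, to 0.13 and 0.0013, under TMM scaling, so no direction is given. Its 95% intervals were -0.78 to 0.66, -1.23 to 0.49 and -0.93 to 0.63. Its 2 transcript rows differ in their untranslated ends, and the shorter held 0.455 to 0.605 of the reads of the longer in p53 tumours and 0.489 to 0.607 in β-catenin tumours.

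Rb1 (chr14:73183673-73325822, minus strand) overlapped between the drivers in every comparison. In set 1 it ranged from 416.9 to 1215 normalized reads in p53 tumours (median 713.9) and from 407.1 to 732.5 in β-catenin tumours (median 543.9). Set 2 gave 780.6 to 932.2 with p53 loss and 483.4 to 958.6 with β-catenin. The differences, -0.28 ± 0.35, -0.48 ± 0.42 and -0.34 ± 0.23 (SE), were not called (adjusted p = 0.613, 0.529 and 0.318, limma). Their 95% intervals were -1.05 to 0.49, -1.40 to 0.44 and -0.85 to 0.17. Rcbtb2 overlaps Rb1 on the opposite strand, and the labels do not state whether the kit kept strand, so reads of the 2 genes in the overlap cannot be told apart.

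Between genes, levels were compared as normalized reads per kb of transcript in set 1. Over the 12 tumours the medians were 1493 for Trp53, 716.5 for Cdkn2c, 589.1 for Mdm4, 136.7 for Rb1, 120.7 for Cdkn2a and 30.2 for Cdkn2b. In the lucOS p53 group the mean of Cdkn2a was 3386 ± 2961 per kb (SD, n = 3), above the 891.1 ± 134.2 of Trp53, and in the luc β-catenin group it was 33.5 ± 24.5 (n = 4) against 2400 ± 286. The order of group means of Trp53, on the scale of normalized reads, ran in set 1 from lucOS p53 over luc p53 and lucOS β-catenin up to luc β-catenin. Only the step from luc p53 to lucOS β-catenin separated neighbours whose values did not overlap. For Cdkn2a the order ran from luc β-catenin over lucOS β-catenin and luc p53 to lucOS p53, and each pair of neighbours overlapped. In set 2 the p53 group was apart from its neighbour for Trp53, Cdkn2a and Mdm4 and overlapped it for the other 3 genes.

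The antigen made no called difference. LucOS was compared with luc within p53 tumours of set 1, within β-catenin tumours of set 1 and within β-catenin tumours of set 2, and 0 of 6 genes were called each time, against 0% of all genes. Over all genes, 722 of 16108, 222 of 16108 and 288 of 15625 had an unadjusted p under 0.05 in these limma fits, none of them 1 of the 6 genes. Where nothing differs a share of 0.05 is reached without any effect, and each count was below that share. DESeq2 called 9, 18 and 10 genes. The 6 genes overlapped between luc and lucOS in all 3 comparisons, while groups did not overlap for 9.70%, 6.34% and 4.54% of all genes. Trp53 differed by -0.16 (95% interval -0.63 to 0.31), -0.14 (-0.63 to 0.36) and -0.18 (-0.73 to 0.36). Cdkn2a differed by 1.34 (-1.47 to 4.15), 1.14 (-1.84 to 4.11) and 0.10 (-2.69 to 2.89), intervals that allow a large difference of either sign. In set 1 the driver difference with lucOS minus that with luc was 0.02 ± 0.31 for Trp53 and -0.21 ± 1.87 (SE) for Cdkn2a. It was called for 0 of 6 genes and 0% of all genes (adjusted p = 0.9998 for each of the 6, limma). An unadjusted p under 0.05 was found for 436 of 16108 genes, again below a share of 0.05, and DESeq2 called 17.

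A list of 20 other genes that act on p53 was described beside the members. With β-catenin, 0 were called higher and 2 lower among luc tumours of set 1, 0 and 1 among lucOS tumours of set 1, and 3 and 5 in set 2. Over all genes, 5.93% were called higher and 9.16% lower, 1.62% and 2.59%, and 6.08% and 10.9% in turn. Their median differences were -0.12, -0.29 and -0.20, beside -0.20, -0.15 and -0.16 for all genes. Under TMM scaling, which brings the median of all genes to between -0.012 and -0.001, the counts became 1 and 1, 0 and 0, and 3 and 3, and the list medians 0.07, -0.14 and -0.04. Chek1, the checkpoint kinase of replication stress, was lower in both lucOS comparisons, by -1.60 ± 0.36 (adjusted p = 0.0381) and -1.42 ± 0.34 (0.0222). Among luc tumours it differed by -0.96 ± 0.30 (0.0533, limma). The lucOS call of Chek1 in set 1 was lost under 4 of 7 other settings, among them TMM scaling (adjusted p = 0.0567), and without any 1 of the 5 tumours (highest 0.2105), and that of set 2 without p53 tumour 1 or 3 (0.0545 and 0.0602, limma) and under 2 of 7 other settings. Kat5, the acetyltransferase Tip60 that modifies p53, was lower among luc tumours (-1.01 ± 0.15, adjusted p = 0.00299) and in set 2 (-0.90 ± 0.22, 0.0234), and differed by -0.54 ± 0.18 among lucOS tumours of set 1 (0.1104, limma). The luc call of Kat5 held without any 1 tumour (highest adjusted p = 0.0167), and the call of set 2 was lost without lucOS β-catenin tumour 1 or 2 (0.0578 and 0.0573, limma) and with the JAX tumours alone (0.44).

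Mdm2, which marks p53 for degradation and is also a p53 target gene, was at 3468 ± 909 (SD, n = 4) normalized reads in luc β-catenin and 2041 ± 311 (n = 3) in luc p53 tumours of set 1. These groups did not overlap, and the difference of 0.74 ± 0.23 just missed the threshold (adjusted p = 0.0534, limma). It was called under TMM scaling (0.93, adjusted p = 0.0303) and without luc β-catenin tumour 2 (0.0482, limma). With lucOS the difference was 0.97 ± 0.28 (set 1, adjusted p = 0.0703, limma) and 0.28 ± 0.20 (set 2, adjusted p = 0.336, limma). Of 5 relatives and cofactors of p53, 4 were tested, with 0 higher and 1, 0 and 1 lower in the 3 comparisons, and 0, 0 and 1 lower under TMM scaling. The genes called among luc tumours and in set 2 were not the same. The one called in set 2 was near 0 with β-catenin, at 1.55 ± 0.68 (SD) with lucOS and 0.61 with luc. Its p53 tumours were at 30.6 ± 23.8, and it passed the filter on low values only through them, so its call carries little weight. The shares of all genes called lower in the deposited scaling were 9.16%, 2.59% and 10.9%.

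In the RB pathway, 20 cyclins, kinases, E2F factors and their partners were tested. None was called higher with β-catenin, and 5, 1 and 6 were called lower, beside 9.16%, 2.59% and 10.9% of all genes. The medians were -0.61, -0.73 and -0.59, beside -0.20, -0.15 and -0.16 for all genes. Under TMM scaling 0, 0 and 1 were higher and 3, 1 and 4 lower, with medians of -0.42, -0.59 and -0.44. Ccne2, a cyclin of S-phase entry, was lower in all 3 comparisons, by -1.28 ± 0.29, -2.08 ± 0.35 and -1.31 ± 0.32 (SE; adjusted p = 0.0167, 0.0154 and 0.0231, limma). Tfdp1, a partner with which most E2F factors bind DNA, was lower among luc tumours (-1.34 ± 0.31, adjusted p = 0.0173) and in set 2 (-0.75 ± 0.19, 0.0291), where the call was lost under 4 of 7 other settings, TMM scaling among them (0.0633, limma). E2f5, a mostly repressive E2F, was lower in the same comparisons by -1.33 ± 0.41 (0.0498) and -1.34 ± 0.33 (0.0253), and the first call was lost under 6 of 7 other settings, among them TMM scaling (0.0921), and the call of set 2 under 3 of 7 (limma). Each of these calls was lost without at least 1 tumour. For Ccne2 this was so without luc p53 tumour 2 (adjusted p = 0.0688), without lucOS β-catenin tumour 2 of set 1 (0.0989) and without 4 of the 7 tumours in turn in set 2 (highest 0.0775, limma). Other settings ended the Ccne2 call in 0 of 7 cases among luc tumours, in 1 of 7 among lucOS tumours of set 1 and in 2 of 7 in set 2. For Tfdp1 it was luc p53 tumour 1 or 2 (0.0732 and 0.0542) and 5 of 7 tumours in set 2 (highest 0.0905), and for E2f5 any of the 7 in luc and 4 of 7 in set 2 (highest 0.1666 and 0.0852, limma). In lucOS tumours of set 1, Tfdp1 differed by -1.33 ± 0.37 and E2f5 by -1.32 ± 0.49 (adjusted p = 0.0629 and 0.134, limma).

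Of 5 other CDK inhibitor genes, 0 were called in set 1, and in set 2 0 were higher and 1 lower, as under TMM scaling. Over all genes, 15.1% (luc) and 4.21% (lucOS) were called in set 1, and 10.9% were called lower in set 2. Cdkn1a, which encodes p21 and is the classical p53 target among them, was at 3828 ± 1185 normalized reads in luc β-catenin and 2684 ± 686 in luc p53 tumours of set 1 (SD). Its differences were 0.48 ± 0.39, 0.88 ± 0.46 and 0.07 ± 0.58 (SE; adjusted p = 0.412, 0.275 and 0.945, limma), with overlapping groups each time. Of 20 proliferation genes, none was higher with β-catenin and 1, 2 and 8 were lower, with medians of -0.55, -0.93 and -0.96, read against the same shares and medians of all genes as the RB pathway. Under TMM scaling 0, 1 and 3 were lower and none higher, with medians of -0.36, -0.78 and -0.80. Top2a, the DNA topoisomerase of dividing cells, was lower in all 3 comparisons (-1.11 ± 0.32, -1.84 ± 0.38 and -1.78 ± 0.30; adjusted p = 0.04, 0.0307 and 0.00757, limma). The luc call of Top2a was lost under 4 of 7 other settings, among them TMM scaling (adjusted p = 0.086), and without 5 of the 7 tumours in turn (highest 0.1063), and its lucOS call of set 1 under 3 of 7 and without 3 of 5 tumours (highest 0.1861, limma). The call in set 2 held without any 1 of 7 tumours (highest 0.0252) and was lost with the JAX tumours alone (0.4958, limma).

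Of 20 genes known to control the Ink4-Arf locus, among them Polycomb proteins and T-box repressors, 20 were tested in set 1 and 17 in set 2. With β-catenin 2 were higher and 3 lower among luc tumours, 1 and 0 among lucOS tumours of set 1, and 1 and 2 in set 2. The shares of all genes called were 5.93% and 9.16%, 1.62% and 2.59%, and 6.08% and 10.9% in turn. The list medians were -0.22, -0.06 and -0.43, beside -0.20, -0.15 and -0.16 for all genes. Under TMM scaling 2, 1 and 1 were higher and 1, 0 and 0 lower, with medians of -0.03, 0.09 and -0.28. Tbx3, a T-box factor known to repress Arf, was higher in all 3 comparisons, by 4.93 ± 0.57, 3.74 ± 0.69 and 3.58 ± 0.76 (SE; adjusted p = 0.000742, 0.0213 and 0.0158, limma). Its means in luc tumours of set 1 were 4005 ± 1464 (SD, n = 4) with β-catenin and 124.7 ± 33.2 (n = 3) with p53 loss. The luc call of Tbx3 held without any 1 tumour (highest adjusted p = 0.0047), while the lucOS call of set 1 was lost without p53 tumour 1, β-catenin tumour 1 or β-catenin tumour 2 (highest 0.1319), with no filter on low values (0.057) and with only the groups compared (0.1161, limma). In set 2 it was lost without lucOS β-catenin tumour 3 (0.0567) and with the JAX tumours alone (0.3283, limma). Suz12, a core subunit of Polycomb repressive complex 2, was lower among luc tumours (-0.72 ± 0.18, adjusted p = 0.0263) and in set 2 (-0.63 ± 0.18, 0.0397), and both calls were lost under TMM scaling (0.0823 and 0.0909, limma) and without 5 of 7 and 6 of 7 tumours in turn. Of the 7 other settings, 2 ended the luc call of Suz12 and 5 the call in set 2. In lucOS tumours of set 1 it differed by -0.85 ± 0.22 (0.0516, limma).

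**Figure D4:**
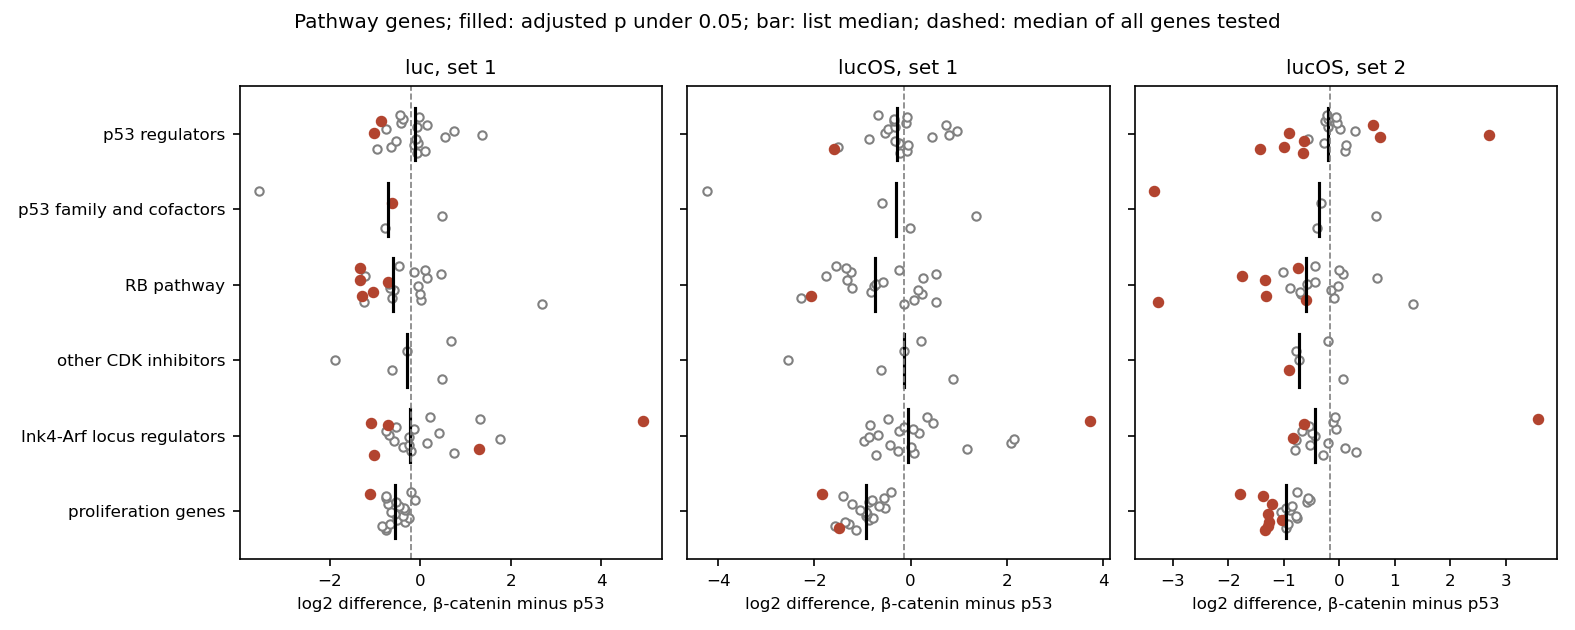
Log2 differences between β-catenin and p53 tumours (horizontal axes) of the genes in 6 pathway lists, 1 dot a gene, filled where called, with each list's median as a bar and the median of all genes tested as a dashed line. In the RB pathway and proliferation lists every called gene lies left of 0 in the deposited scaling (under TMM scaling 1 RB pathway gene is called higher in set 2), and the point farthest right among the locus regulators is Tbx3, between 3.58 and 4.93.

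Markers of other cell types differed between the drivers in some of the comparisons where Cdkn2a and Trp53 did. The summed level of 6 matched T cell markers (of 7) ran from 337.4 to 822.5 normalized reads in the p53 tumours of set 2 and from 116.4 to 125.1 in the lucOS β-catenin tumours. In set 1 it ran from 142.6 to 439.6 in luc p53 against 64.6 to 165.6 in luc β-catenin tumours. In set 2, 0 of the 6 were called higher and 5 lower with β-catenin, and none was called in set 1. All marker calls stand beside the shares over all genes. These were 5.93% higher and 9.16% lower (luc, set 1), 1.62% and 2.59% (lucOS, set 1) and 6.08% and 10.9% (lucOS, set 2). The 5 bile duct markers summed to 2935 to 16700 in luc p53 and to 669.7 to 4344 in luc β-catenin tumours of set 1, with 0 called higher and 1 lower. The 4 matched neutrophil markers (of 5) summed to 407.4 to 2503 and to 189.2 to 459.2 in the same groups, with 0 called. The 6 matched hepatocyte markers (of 7) summed to 279300 to 593100 and to 687400 to 836000, with 1 called higher and 0 lower. In set 2 the hepatocyte sums overlapped, at 213900 to 365700 in p53 and 198100 to 773100 in lucOS β-catenin tumours, and so did the bile duct sums, at 1545 to 7888 and 1381 to 3046, with 0 called in either list. The neutrophil sums there were 361.4 to 1196 and 194.0 to 311.9, with 1 of 4 called lower. In the lucOS tumours of set 1, the sums for p53 and β-catenin were 437200 to 549000 and 728500 to 739100 (hepatocyte), 142.6 to 666.8 and 132.0 to 168.2 (T cell), 1743 to 15470 and 186.2 to 2241 (bile duct) and 425.2 to 787.6 and 86.95 to 421.1 (neutrophil). There, 1 of 5 bile duct markers was called lower, and 0 under TMM scaling. Of the other markers, 1 of 7 macrophage markers was called in luc tumours (higher) and 4 of 7 in set 2 (2 higher, 2 lower). In set 2, 2 of 6 endothelial markers were called lower, and 1 of 7 stellate and fibroblast markers higher. Under TMM scaling 1 endothelial marker was lower in set 2, and with edgeR 1 was higher and 0 lower. The macrophage calls of set 2 became 2 higher and 1 lower under TMM scaling. No matched T cell, bile duct, neutrophil or hepatocyte marker was at 0 throughout a group. The part of these cells in the results for Cdkn2a and Trp53 was not tested.

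The genes whose log2 values ran most like each member were taken from the 15378 genes kept in both tables, by the lower of the Pearson r over the 12 tumours of set 1 and the 10 of set 2. For Trp53 these were Fbxl21 (r = 0.96 and 0.93), Ces1b, a liver carboxylesterase (0.92 and 0.95), and Cml2 (0.91 and 0.92). For Cdkn2a they were Dmbt1, a mucosal scavenger receptor (0.96 and 0.92), Hps5, a subunit of a lysosome-related organelle complex (0.93 and 0.92), and Klhl17 (0.92 and 0.95). Trp53 split the tumours of each set by driver. Cdkn2a did so in set 2, and in set 1 except that luc p53 tumour 3 (101.5 normalized reads) lay below lucOS β-catenin tumour 1 (114.6). Any gene that splits the tumours in this way scores high with them, and the r of Cdkn2a also follows its wide spread among p53 tumours. For Cdkn2b they were P4ha2, a collagen prolyl hydroxylase (0.93 and 0.88), Ahi1 (0.89 and 0.90) and Arl4c (0.88 and 0.88). For Cdkn2c they included Stmn1, a microtubule regulator of dividing cells (0.92 and 0.81), and Immp1l (0.83 and 0.71). For Mdm4 they were Mkks (0.76 and 0.83), Cyhr1 (0.65 and 0.65) and Zfp101 (0.66 and 0.64). For Rb1 they were Ensa (0.83 and 0.80), Cap2 (0.72 and 0.75) and Rhoa (0.81 and 0.72). The points of each r share library and scaling, and the values describe these tumours only.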

How the data were processed

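RNA of 22 tumours was sequenced from TruSeq libraries, per the labels' protocols. Per the submitters' processing notes the tools were TopHat2, featureCounts and DESeq2, on build mm10, with no versions or options. The authors deposited 2 tables of normalized signal, scaled apart. In all 22 columns 100% of values were whole reads divided by 1 factor, within 0.01 reads, so reads were recovered for depth, edgeR and DESeq2. In the table of 33068 transcripts, the row with the highest mean stood for each gene. Dates in place of symbols were restored for 27 genes in set 1, and 27 such rows were left out in set 2.

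Groups came from the genotype labels. Genes at 10 or more in at least 2 (set 1) or 3 (set 2) tumours were kept. Log2(value + 1) was fitted in limma 3.58.1 with a mean-variance trend (R 4.3.3), 1 fit holding all groups of a set, two-sided, with Benjamini-Hochberg adjustment over all genes kept. Alternatives were a pseudocount of 10, no filter, TMM scaling, edgeR 4.0.16, DESeq2 1.42.0, only the groups compared, summed transcript rows, only tumours named JAX, and leaving out each tumour. The fit was tested on simulated data. The members and lists were chosen with earlier results of these data known. Beyond the 6 members, Mdm2, Cdkn1a, Alb and the 3 genes most like each member, the text names list genes called the same way in at least 2 of the 3 driver comparisons, at most 4 a list. Mtap and Dmrta1, which lie on either side of the locus, are also named. A gene that this rule names is not reported here. Positions are from GENCODE vM21 on GRCm38.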

Additional observations from a re-analysis of the deposited data

Results flagged for a closer look

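In each of the 15 groups of 4 tumours (a row of a member in a group), the highest and lowest tumour were set against the others with Dixon's test at its 95% critical value. Chance flags about 1 in 20 such groups. All flags fell in the luc β-catenin group of set 1. Tumour 3 stood above the other 3 for both Cdkn2a rows, at 62.7 normalized reads in the Arf row and 51.9 in the Ink4a row, and below them for both Trp53 rows, at 3689 and 3675. The paired rows share most of their reads, so each pair is nearly 1 observation. Tumour 1 stood above the others for Mdm4, at 3039.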

How the results depend on the processing

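No paired analysis was possible because replicate numbers only follow the order of the samples and the labels tie no tumour of 1 group to a tumour of another.

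Trp53 among luc tumours of set 1 kept its call and direction under every alternative run. The causes of the changes below were not tested. Among lucOS tumours of set 1, 678 genes were called, against 2031 with DESeq2, 418 with edgeR, 298 with no filter on low values and 18 with only the groups compared, and among lucOS tumours of set 2 2656, against 23 with only JAX tumours. The antigen and interaction counts of 0 became 9 (p53), 18 (β-catenin, set 1), 10 (β-catenin, set 2) and 17 (interaction) with DESeq2, and 2, 7, 5 and 8 with no filter. Leaving out 1 tumour at a time moved the called genes to between 812 and 1964 (luc, set 1, from 2431), 76 and 951 (lucOS, set 1) and 1127 and 2209 (lucOS, set 2). The called transcript rows moved to between 1305 and 3150 (luc) and 112 and 1537 (lucOS), and those of the interaction lay between 0 and 1. A group left with 1 tumour is assumed to vary like the others.

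With no filter, Cdkn2a among luc tumours was at -4.60 and Trp53 in set 2 at 0.95, both no longer called. DESeq2 called Cdkn2a among lucOS tumours of set 1 (-5.24) and Mdm4 in set 2 (0.39). With only JAX tumours, Cdkn2a (-4.39) and Trp53 (1.08) were not called and Cdkn1a was at -0.28, and with only the lucOS groups of set 1 Trp53 (1.30) was not. Cdkn2c turned to 0.13 (TMM), 0.12 (edgeR) and 0.11 (DESeq2) among luc tumours and to 0.0013 (TMM), 0.17 (edgeR), 0.17 (DESeq2) and 0.082 (JAX) in set 2, and the Trp53 interaction to -0.017 (TMM).

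Without 1 tumour at a time, Cdkn2a ranged from -5.93 to -3.77 (luc), -6.20 to -3.83 (lucOS, set 1), -7.66 to -5.29 (lucOS, set 2), -1.22 to 1.16 (antigen, β-catenin, set 2) and -1.59 to 1.12 (interaction). Trp53 ranged from 0.997 to 1.60 (lucOS, set 1), 0.75 to 1.12 (lucOS, set 2), -0.43 to 0.16 (antigen, β-catenin, set 1) and -0.28 to 0.32 (interaction). Cdkn2c ranged from -0.32 to 0.16 (luc) and -0.66 to 0.17 (set 2), Mdm4 from -0.10 to 0.19 (luc) and Cdkn1a from -0.41 to 0.67 (set 2). Cdkn2b and Cdkn2a in β-catenin tumours rest on few reads, which limits what could be detected.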
